A study of Danio rerio with 12 samples.

Results

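The gene ddb2 (ENSDARG00000041140) and 7 other genes of DNA excision repair, ddb1, xpc, ercc6, xpa, ercc1, ercc5 and neil1, were followed in retinal RNA of adult zebrafish. The genes were taken by symbol, and all 8 were found in the deposited table of 32674 genes. The set was chosen by measured values: ddb2 was selected on its lineage difference in these same libraries, and the other genes were set around it with no threshold, so all values of the 8 genes for that contrast are a description, and no p-value is given for them. The fish were of the EK strain and of the F3 generation. The MeHg lineage descends from F1 eggs that spent 24 h in methylmercury (MeHg) at 0.03 µM, and the control lineage from F1 eggs at 0 µM, with ethanol as the vehicle in both. The F2 and F3 generations met no added MeHg. A named column was at hand for 5 control libraries (numbers 3, 4, 5, 7 and 8) and 6 MeHg libraries (numbers 2 to 7). The labels call the samples of a lineage biological replicates, but do not say how many fish or founders stand behind them, nor at what time of day or in which light the retinas were taken, so p-values measure only the spread between these libraries.

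Nucleotide excision repair removes bulky lesions such as the pyrimidine dimers made by ultraviolet light. Damage is found across the genome by a complex of the DDB1 and DDB2 proteins and by XPC, or at a stalled RNA polymerase by ERCC6 (CSB), after which the helicase complex TFIIH opens the strands, XPA checks the lesion, and the nucleases ERCC5 (XPG) and ERCC1-XPF cut on either side of it. Oxidised bases are instead taken out by base excision repair, which DNA glycosylases such as NEIL1 begin. In zebrafish, ddb2, xpc and neil1 are known as genes whose transcripts are raised by light, as are genes of photolyases, the enzymes that reverse ultraviolet lesions with light energy. The other 5 genes are here the set not assigned to light induction.

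Of the 8 genes, the 3 light-inducible ones had lower levels in the MeHg lineage. With all libraries, the other 5 were close between the lineages or varied as much within a lineage as between them. Mean ddb2 was 13.9-fold lower in the MeHg lineage, neil1 2.33-fold and xpc 1.93-fold. In the fit over all genes (limma on log2(FPKM + 1), where FPKM is a level scaled to gene length and library size) these 3 were past the threshold of an adjusted p of 0.05 and the other 5 were not. Across all 20320 genes tested, 8.98% were past the threshold, 5.47% as higher and 3.50% as lower. Because the contrast was used to choose the genes, nothing is read from the count of 3 in 8, and it does not test a difference between the sets. The log2 differences ranged from -3.15 to -0.78 in the light-inducible set (median -1.07) and from -0.42 to 0.32 in the other set (median 0.13), beside a median of 0.02 over all genes tested. The lowest of the other set was ercc6. Without control libraries 5 and 7, described below, ercc6 was at -0.66 ± 0.19 (SE), near xpc at -0.72 ± 0.17 and neil1 at -0.71 ± 0.23. In whole retina, fewer cells of a type and less RNA per cell cannot be told apart.

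**Figure D1:**
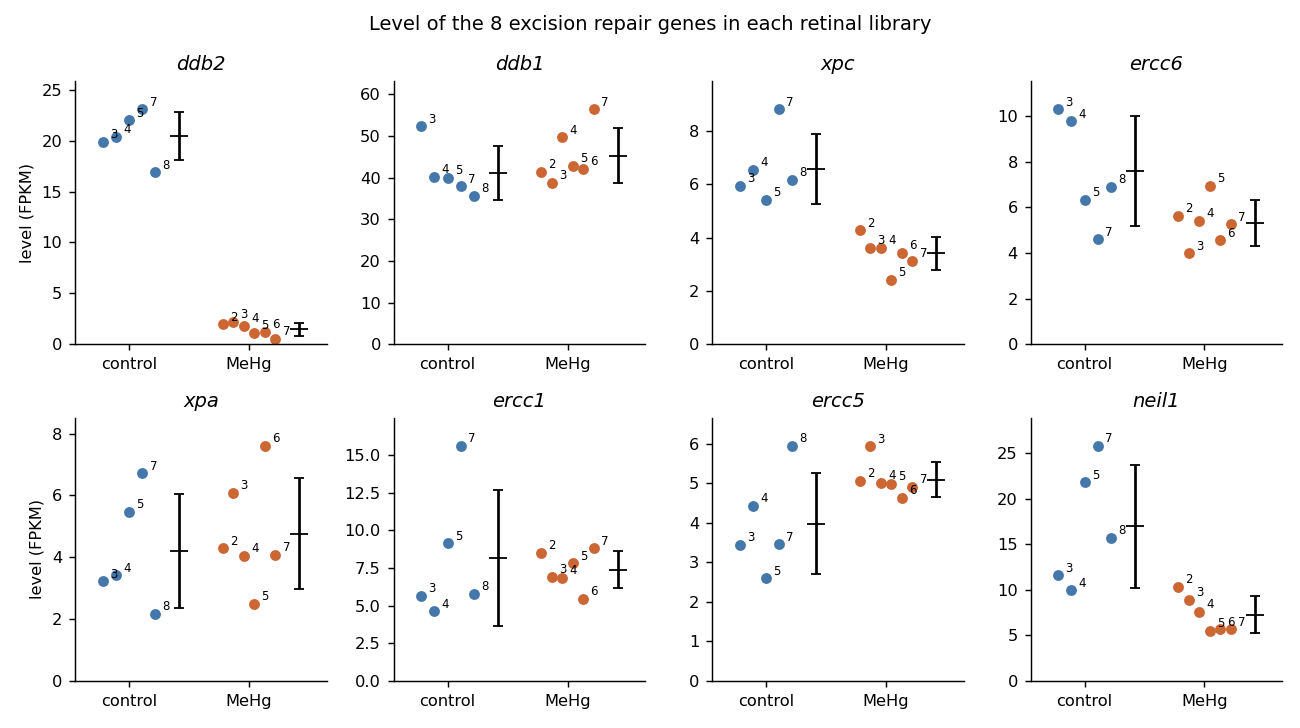
Level in FPKM (vertical axis, from 0) of the 8 genes in each library, with 5 control (blue) and 6 MeHg (orange) libraries marked by their number, and the mean with SD in black. The ddb2 panel shows the control libraries at 16.9 to 23.1 FPKM and the MeHg libraries at 0.518 to 2.23 FPKM, while the ddb1 panel shows both lineages between 35.6 and 56.4 FPKM.

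The libraries themselves held 2838155 to 5663021 assigned fragments in the control lineage and 4354466 to 6749645 in the MeHg lineage. Of 25 markers of retinal cell types found in the table, 24 were above 0 in every library, and rho, the rod opsin gene, was listed at 0 in all 6 MeHg libraries. Control libraries 5 and 7 stood apart by transcripts of oocytes and of dividing cells. The summed level of 10 oocyte markers was 1070 and 1990 FPKM there and 0.324 to 4.13 FPKM in the other 9 libraries, and that of 9 markers of dividing cells was 196 and 371 FPKM against 6.00 to 34.6 FPKM. Some of the retinal markers also moved with lineage. Summed rod markers were at 7970 to 25200 FPKM in the control lineage and at 5340 to 7260 FPKM in the MeHg lineage, without overlap. That sum includes rho, at 0 in all 6 MeHg libraries and at up to 20300 FPKM in the control lineage. The separation is that of the sum with rho, and does not show lower values of the other rod markers. Outside control libraries 5 and 7, bipolar markers were at 1110 to 2020 FPKM in the control lineage against 489 to 795 FPKM, horizontal cell markers at 34.2 to 69.4 against 14.0 to 22.2 FPKM, and Müller glia markers at 1040 to 1530 against 702 to 944 FPKM. Control library 7 was within these MeHg ranges, at 641, 16.7 and 844 FPKM. Each of these sums is mostly 1 gene. Over all libraries, cabp5a was at 386 to 1860 FPKM and the next bipolar marker, vsx1, at up to 159 FPKM. The horizontal marker cx52.6 was at 13.2 to 68.7 FPKM and barhl1b at up to 2.1 FPKM. Of the Müller glia markers, apoeb was at 451 to 1310 FPKM and rlbp1a at up to 298 FPKM. The separations of these sums do not show lower values of the other markers. Even outside libraries 5 and 7 the lineages overlapped in cone (11000 to 15700 against 9190 to 12000 FPKM) and amacrine markers (768 to 971 against 643 to 907). They also overlapped in ganglion (121 to 168 against 108 to 177) and pigment epithelium markers (514 to 1550 against 378 to 619). The part of these markers in the lower levels of ddb2, xpc and neil1 was not tested. Values without control libraries 5 and 7 are given beside the results for the 8 genes and for the gene lists that they move most.

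The damage sensor ddb2 had the largest difference among the 8. Its level was 19.9, 20.4, 22, 23.1 and 16.9 FPKM in control libraries 3, 4, 5, 7 and 8, and in the MeHg lineage it ran from 0.518 FPKM (library 7) over a median of 1.53 to 2.23 FPKM (library 3). Every MeHg library was below every control library, with no value in between. The means were 20.5 ± 2.34 FPKM (SD, n = 5) and 1.48 ± 0.638 FPKM (SD, n = 6), a difference of -3.15 ± 0.20 (SE) on the log2(FPKM + 1) scale. That scale understates the change of low values: with a pseudocount of 0.1 in place of 1 the difference was -3.82 ± 0.31 (SE). In the control lineage ddb2 exceeded 78.4% of the genes tested, and in the MeHg lineage it exceeded 18.3%.

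The depth behind ddb2 was unequal. The scaled fragment numbers of the companion table fall on whole steps, which put ddb2 at 76 to 268 fragments per control library and at 23, 17, 16, 10, 10 and 4 fragments in MeHg libraries 2 to 7. The exact 95% Poisson interval was 59.9 to 95.1 fragments for control library 8, the lowest control, and 14.6 to 34.5 for MeHg library 2. For the 4 fragments of MeHg library 7 it was 1.09 to 10.2, so the order among the lowest MeHg libraries is not resolved by counting. These intervals cover counting error only. The spread on the log2 scale was 0.16 (SD) among control libraries and 0.40 among MeHg libraries. Without control libraries 5 and 7 the control mean was 19.1 ± 1.90 FPKM (SD, n = 3) and the log2 difference -3.06 ± 0.24 (SE).

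The partner of ddb2, ddb1 (ENSDARG00000074431), which joins DDB2 and many other receptors to the CUL4 ubiquitin ligase, had the highest level of the 8 genes in both lineages. Its level was 52.3, 40.2, 39.9, 37.9 and 35.6 FPKM in control libraries 3, 4, 5, 7 and 8, and 38.8 to 56.4 FPKM (median 42.4) in the MeHg lineage. The ranges overlapped, and 1 MeHg library lay above the highest control. The means were 41.2 ± 6.5 FPKM (SD, n = 5) and 45.2 ± 6.57 FPKM (SD, n = 6). The log2 difference was 0.13 ± 0.14 (SE), or 0.09 ± 0.16 (SE) without control libraries 5 and 7. Within each library the log2 ratio of ddb2 to ddb1 was -1.39 to -0.72 in the control lineage and -6.77 to -4.12 in the MeHg lineage.

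The gene xpc (ENSDARG00000039754), whose product senses distorted DNA, had a smaller difference than ddb2 but the same separation. Its level was 5.94, 6.54, 5.41, 8.82 and 6.17 FPKM in control libraries 3, 4, 5, 7 and 8, and it ran from 2.42 FPKM over a median of 3.52 to 4.27 FPKM in the MeHg lineage. All 6 MeHg libraries were below the lowest control library. Among the 8 genes this held for ddb2 and xpc; among all genes tested it held for 2.72%. The means were 6.58 ± 1.32 FPKM (SD, n = 5) and 3.41 ± 0.611 FPKM (SD, n = 6), and the log2 difference was -0.78 ± 0.16 (SE), or -0.72 ± 0.17 (SE) without control libraries 5 and 7.

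The sensor of stalled transcription, ercc6 (ENSDARG00000075612), was at 10.3, 9.77, 6.34, 4.60 and 6.91 FPKM in control libraries 3, 4, 5, 7 and 8 and at 3.98 to 6.94 FPKM (median 5.34) in the MeHg lineage. The ranges overlapped, since control library 7 was lower than 4 of the 6 MeHg libraries. The log2 difference was -0.42 ± 0.20 (SE) with all libraries and -0.66 ± 0.19 (SE) without control libraries 5 and 7.

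The verification factor xpa (ENSDARG00000038114) had few fragments, 5 to 43 per library, and a wide spread. Its level was 3.22, 3.41, 5.46, 6.72 and 2.18 FPKM in control libraries 3, 4, 5, 7 and 8 and 2.5 to 7.60 FPKM (median 4.18) in the MeHg lineage. Control libraries 5 and 7 were the highest of their lineage, and the lineages overlapped along nearly their whole ranges. The log2 difference was 0.16 ± 0.27 (SE), and 0.51 ± 0.27 (SE) without these libraries. For xpa the FPKM given per scaled fragment also differed up to 1.49-fold between libraries, against 1.02-fold for ddb2 and a median of 1.03-fold over the 17660 tested genes with a value in every library, so its FPKM reflects more than its fragment number. On the scaled fragment numbers its log2 difference was 0.12 ± 0.39 (SE).

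Of the genes of the incision step, ercc1 (ENSDARG00000031680), the partner of the XPF nuclease, was at 5.63, 4.63, 9.13, 15.6 and 5.79 FPKM in control libraries 3, 4, 5, 7 and 8 and at 5.46 to 8.80 FPKM (median 7.35) in the MeHg lineage. Control libraries 5 and 7 were above every MeHg library. Control library 4 was below every MeHg library, and control libraries 3 and 8 were below 5 of the 6. Its log2 difference was -0.02 ± 0.26 (SE) with all libraries and 0.39 ± 0.17 (SE) without control libraries 5 and 7. The nuclease gene ercc5 (ENSDARG00000023678) was at 3.45, 4.44, 2.60, 3.46 and 5.95 FPKM in these control libraries and at 4.64 to 5.94 FPKM (median 5.0) in the MeHg lineage, all within the upper part of the control range. Its log2 difference was 0.32 ± 0.18 (SE), or 0.14 ± 0.17 (SE) without control libraries 5 and 7, and its FPKM per scaled fragment differed up to 1.31-fold between libraries.

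The glycosylase gene neil1 (ENSDARG00000018061) belongs to base excision repair, and its difference was smaller without control libraries 5 and 7, where it was highest. It was at 11.6, 9.93, 21.8, 25.8 and 15.7 FPKM in control libraries 3, 4, 5, 7 and 8, and ran from 5.51 FPKM over a median of 6.64 to 10.3 FPKM in the MeHg lineage. Of the MeHg libraries 5 were below the lowest control library, and library 2, at 10.3 FPKM, was above control library 4. The means were 17.0 ± 6.74 FPKM (SD, n = 5) and 7.27 ± 2.02 FPKM (SD, n = 6), with a log2 difference of -1.07 ± 0.25 (SE). Without control libraries 5 and 7 the control mean was 12.4 ± 2.97 FPKM (SD, n = 3) and the log2 difference -0.71 ± 0.23 (SE), and without control library 5 alone it was -0.96 ± 0.27 (SE). As a description, neil1 was on the other side of the threshold in both of these fits; without control libraries 5 and 7, 8.28% of all genes were past it. The part of the oocyte transcripts in the values of neil1, xpa, ercc1 and ercc6 was not tested.

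Dividing each level by that of ddb1 in the same library removes any scaling of the whole library. The log2 ratio of ddb2 to ddb1 went from a mean of -1.0 ± 0.25 (SD, n = 5) in the control lineage to -5.07 ± 0.93 (SD, n = 6) in the MeHg lineage. That of xpc went from -2.65 ± 0.39 to -3.74 ± 0.37 without overlap, and that of neil1 from -1.36 ± 0.71 to -2.67 ± 0.51 with overlap. For ercc6 the means were -2.49 ± 0.38 and -3.10 ± 0.29, with overlap. For xpa, ercc1 and ercc5 the means of the lineages differed by 0.08, -0.15 and 0.27, less than the SD within the control lineage. Overlap depended on the denominator. Over each of the 5 unassigned genes in turn, the ratios of the lineages did not overlap in 5 cases for ddb2, 2 for xpc and 3 for neil1.

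**Figure D2:**
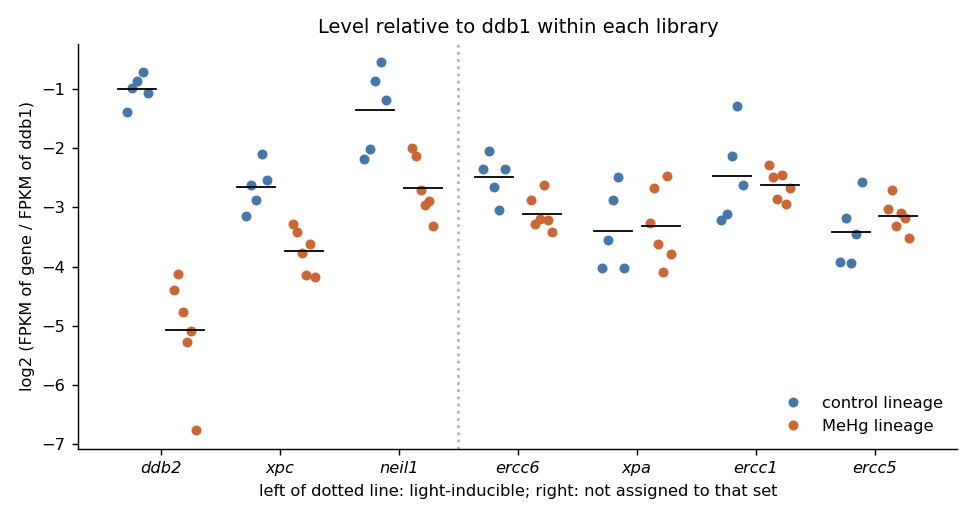
Log2 ratio of the FPKM of 7 genes to that of ddb1 within each library (vertical axis), for 5 control (blue) and 6 MeHg (orange) libraries, with group means as black lines and the light-inducible genes left of the dotted line. For ddb2 the control libraries lie at -1.39 to -0.72 and the MeHg libraries at -6.77 to -4.12, and the 4 genes on the right overlap between the lineages.

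By level per length, the order in the control lineage was ddb1, ddb2, neil1, ercc1, ercc6, xpc, xpa and ercc5. The ranges of ddb1 and ddb2 did not overlap, and all other neighbours in that order overlapped. In the MeHg lineage the order was ddb1, ercc1, neil1, ercc6, ercc5, xpa, xpc and ddb2. There ddb1 stood clear of ercc1 and xpc stood clear of ddb2 without overlap, and xpc, although overlapping xpa in range, was below it in all 6 libraries. Thus ddb2 ranked second of the 8 genes in the control lineage and last in the MeHg lineage.

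Within the MeHg lineage, the 6 libraries were compared for shared variation after their values had been seen. The choice of genes used these libraries in the lineage contrast, but not the variation among them. Libraries 2, 3 and 4 had the higher values of ddb2, xpc and neil1, and libraries 5, 6 and 7 the lower ones. For ddb2 these values rest on 4 to 23 fragments. Its 95% counting intervals overlap across this split, with 9.15 to 26.0 fragments in library 4 and 4.8 to 18.4 in library 5. On log2(FPKM + 1), ddb2 and neil1 had a Pearson r of 0.82 (exact permutation p = 0.0417, adjusted over 7 relations 0.292) and a Spearman rho of 0.89 (exact permutation p = 0.0333, adjusted 0.102). For ddb2 and xpc r was 0.60 (exact permutation p = 0.225, adjusted 0.394) and rho 0.89 (exact permutation p = 0.0333, adjusted 0.102). For ddb2 and ddb1 r was -0.71 (exact permutation p = 0.136, adjusted 0.318) and rho -0.83 (exact permutation p = 0.0583, adjusted 0.102). The unassigned ercc5 was related to ddb2 about as closely as xpc, with r of 0.59 (exact permutation p = 0.128, adjusted 0.318) and rho of 0.83 (exact permutation p = 0.0583, adjusted 0.102), although on scaled fragment numbers its r was 0.24. For ercc6, xpa and ercc1 r was -0.34, 0.27 and -0.29. None of the 7 relations passed after adjustment, two-sided, and they do not set the light-inducible genes apart from the others. Leaving out libraries 3 and 7, the farthest from the median of ddb2, gave r of 0.94 for neil1, 0.87 for xpc, 0.55 for ercc5 and 0.33 for ddb1 over 4 libraries, so the negative sign for ddb1 rests on those libraries. Among 20150 genes, 4.66% had an r with ddb2 at least as high as neil1, 15.5% at least as high as xpc and 16.5% at least as high as ercc5. No such relation was computed over the 5 control libraries.

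**Figure D3:**
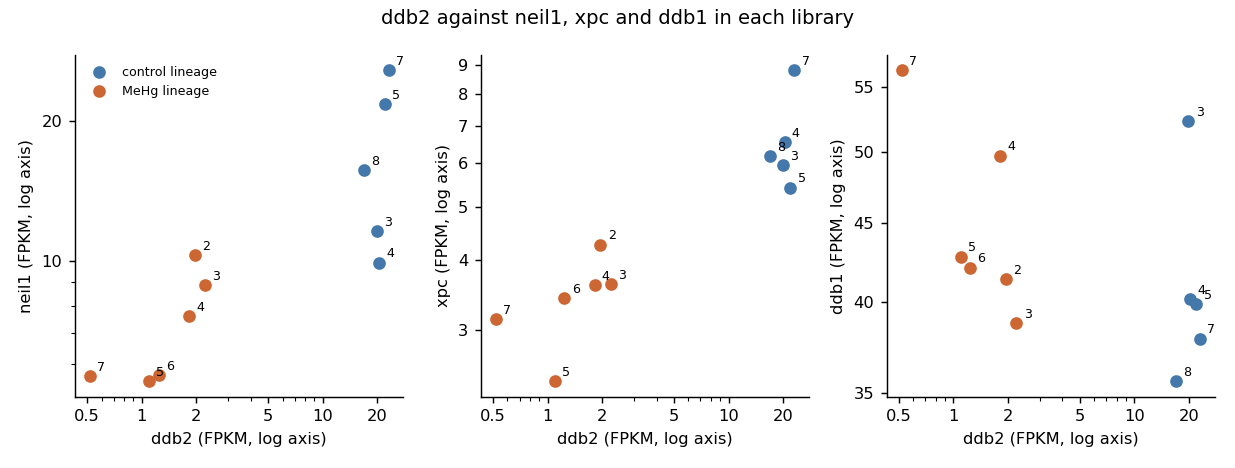
Level of neil1, xpc and ddb1 (vertical axes, FPKM, log scale) against that of ddb2 (horizontal axes, FPKM, log scale) in each library, numbered, with 5 control libraries in blue and 6 MeHg libraries in orange. In the MeHg lineage neil1 runs from 5.51 to 10.3 FPKM and xpc from 2.42 to 4.27 FPKM with the higher values in libraries 2, 3 and 4, and ddb1 is highest in library 7, where ddb2 is lowest.

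The other genes of excision repair and its neighbours were taken from lists that do not hold the 8 genes. These and the later lists were chosen with earlier results of these data known, so the p-values of their genes are not independent support. Their counts at an unadjusted p under 0.05 are a description. The share of all genes at that cut is not given here, and the 8.98% belongs to the adjusted threshold. Nothing is read from the unadjusted counts. Of 115 such repair genes tested, 2 rose and 6 fell, 6.96% of the genes, against 8.98% of all genes tested, and their median log2 difference was -0.16 against 0.02. In 8 of them the lineages did not overlap, against 7.52% of all genes. The count of calls was 4 or 5 without control library 4 or 5 or without MeHg library 2, 4, 5, 6 or 7, and 11 without control library 8. Without control libraries 5 and 7, 107 of these genes met the filter, so the medians cover different sets of genes. There 3 rose and 4 fell, in a fit where 8.28% of all genes passed, and the median was 0.03.

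**Figure D4:**
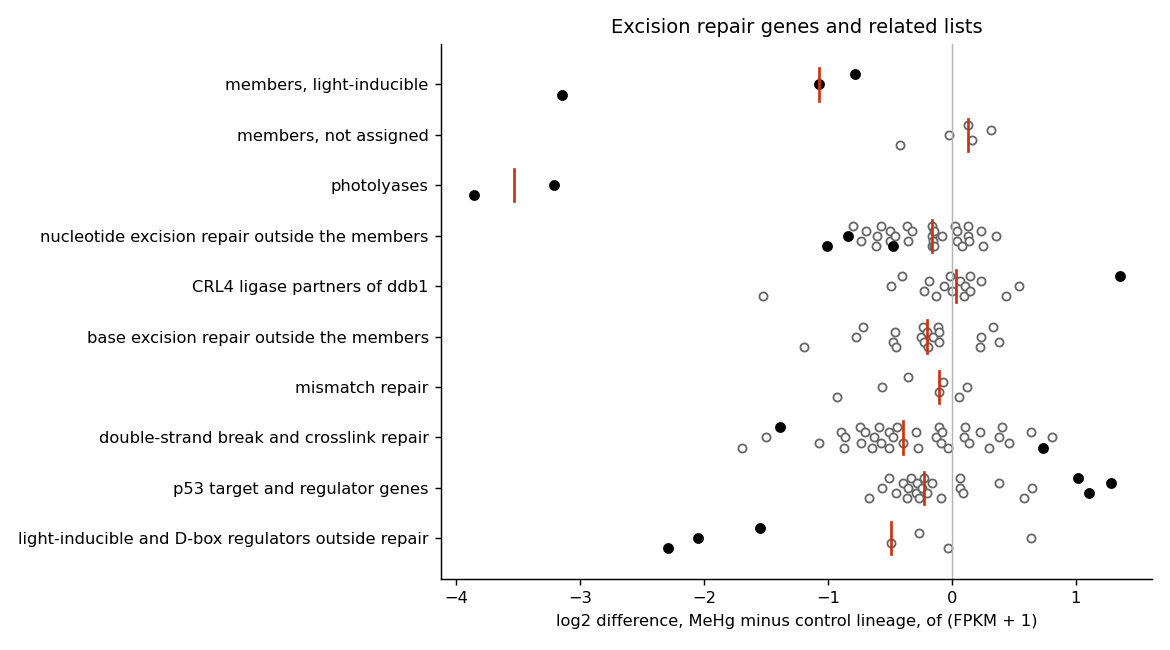
Log2 difference of FPKM + 1, MeHg minus control lineage (horizontal axis), of each gene tested in the lists named at the left, with filled points for an adjusted p under 0.05, open points for the rest and a red line at the median. The light-inducible members and the photolyase genes lie left of 0, and the medians of the 5 other lists of DNA repair lie between -0.39 and 0.04.

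The photolyase list, like that of the regulators below, was chosen with earlier results of these data known, so its p-values give no independent support. The photolyase genes had the largest differences on the lists of repair genes. Both that were found, cry5, which encodes a photolyase for (6-4) photoproducts, and cry-dash, fell. Of all genes tested, 3.50% were called lower. The level of cry5 was 20.7, 17.2, 11.3, 7.06 and 6.39 FPKM in control libraries 3, 4, 5, 7 and 8 and 0 to 0.807 FPKM in the MeHg lineage, with 0 in library 7. Its log2 difference was -3.21 ± 0.30 (SE; limma adjusted p = 3.98e-05), and every MeHg library was below every control. That of cry-dash was -3.86 ± 0.27 (SE; limma adjusted p = 8.56e-06), with means of 25.7 ± 9.04 FPKM (SD, n = 5) in the control and 0.812 ± 0.490 FPKM (SD, n = 6) in the MeHg lineage, again in 6 of 6 libraries. The separate list of light-inducible and D-box regulators holds the clock genes per2 and cry1a and the PAR bZIP genes tefa, dbpa, dbpb, hlfa and hlfb. Of these 7 genes 3 fell (limma), or 42.9%, beside 3.50% of all genes tested that were called lower. None of the 7 rose, and 1 was higher at an unadjusted p under 0.05. Among them tefa, a PAR bZIP activator that binds D-box elements of light-induced genes in zebrafish, fell in 6 of 6 MeHg libraries, where its mean was 39.0 ± 8.62 FPKM (SD, n = 6) beside 170 ± 59.2 FPKM (SD, n = 5) in the control lineage (log2 difference -2.05, limma adjusted p = 0.000205). The related dbpa and dbpb fell by 2.29 and 1.55 on the log2 scale (limma adjusted p = 0.000786 and 0.00330), and hlfb had a log2 difference of 0.64 (limma adjusted p = 0.0546). The list median was -0.49. Without control libraries 5 and 7, 4 of the 7 fell, in a fit where 8.28% of all genes passed, and the median was -0.92. The added gene was per2, with a log2 difference of -0.92 (limma adjusted p = 0.0461) against -0.49 (limma adjusted p = 0.336) with all libraries. The genes cry1a and hlfa passed in neither fit. With all libraries they were at -0.03 (limma adjusted p = 0.952) and -0.26 (limma adjusted p = 0.533). Without control libraries 5 and 7 they were at -0.39 (limma adjusted p = 0.177) and -0.58 (limma adjusted p = 0.0940). The values of per2, cry1a and hlfa are given after they were seen.

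Of 32 nucleotide excision repair genes outside the 8, 3 fell and none rose (limma), with 7 lower and 1 higher at an unadjusted p under 0.05. These calls were 9.38% of the list, beside 8.98% of all genes tested, and the list median was -0.16. Without control libraries 5 and 7, 2 of 31 fell and 1 rose, and the median was -0.03. The gene that rose there was the TFIIH gene gtf2h2 (log2 difference 0.54, limma adjusted p = 0.0468). The helicase gene ercc2 (XPD), a TFIIH subunit, was at 11.5, 7.42, 14.1, 14.6 and 8.72 FPKM in control libraries 3, 4, 5, 7 and 8 and at 3.91 to 5.73 FPKM in the MeHg lineage. Every MeHg library was below every control, and its log2 difference was -1.01 ± 0.19 (SE; limma adjusted p = 0.00494), or -0.77 (limma adjusted p = 0.0236) without control libraries 5 and 7. A further TFIIH subunit, the kinase gene cdk7, had a mean of 18.4 ± 1.38 FPKM (SD, n = 6) in the MeHg lineage, against 26.1 ± 4.02 FPKM (SD, n = 5), with no overlap (log2 difference -0.47, limma adjusted p = 0.0331), and this call was lost in 8 of the fits that leave out 1 library, up to an adjusted p of 0.0804 without MeHg library 5. With all libraries, the other 8 of 10 TFIIH genes did not pass, with log2 differences of -0.80 to 0.36. The scaffold gene xrcc1, which serves the ligation step, fell by 0.84 on the log2 scale (limma adjusted p = 0.0385), to a mean of 6.95 ± 0.738 FPKM (SD, n = 6) beside 13.9 ± 4.85 FPKM in the control lineage (SD, n = 5). Its adjusted p was 0.165 without control libraries 5 and 7 and above 0.05 without any single library other than control library 8. For rfc5, a clamp loader subunit, the log2 difference was -0.61 (limma adjusted p = 0.0621).

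Partners of ddb1 in the CUL4 ligase were mostly close between the lineages. Of 18 tested, 1 rose and none fell (limma), with 3 higher and 2 lower at an unadjusted p under 0.05. The call was 5.56% of the list, beside 8.98% of all genes tested. The gene that rose was dcaf12, a substrate receptor of the ligase, at 18.6, 16.9, 16.1, 13.5 and 17.4 FPKM in control libraries 3, 4, 5, 7 and 8 and at 30.8 to 62.8 FPKM in the MeHg lineage. All 6 MeHg libraries were above the highest control, and dcaf12 differed by 1.36 on the log2 scale (SE 0.19, limma adjusted p = 0.000789), or 1.27 (limma adjusted p = 0.00568) without control libraries 5 and 7. The genes with the next smallest p were dcaf5 (log2 difference 0.54, limma adjusted p = 0.0601), the scaffold cul4b (-0.40, adjusted p = 0.0772) and the receptor ambra1a (0.44, adjusted p = 0.116).

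Base excision repair outside neil1 had 19 genes tested and none passed in limma; at an unadjusted p under 0.05, 1 was higher and 3 were lower. The smallest p values belonged to the abasic site nuclease apex1 (log2 difference -0.45, limma adjusted p = 0.0806), the adenine glycosylase mutyh (-0.72, adjusted p = 0.126), the thymine glycosylase tdg.1 (0.38, adjusted p = 0.179) and the flap nuclease fen1 (-0.77, adjusted p = 0.184). The list median was -0.20. Leaving out control libraries 5 and 7 gave a list median of 0.06 and log2 differences of -0.33 for mutyh, -0.18 for fen1 and 0.23 for tdg.1. That of apex1 was not smaller there, at -0.48 (limma adjusted p = 0.134). With all libraries, apex1 was at 15.8 to 26.8 FPKM in the MeHg lineage and at 28.2 to 36.2 FPKM in the control lineage. It passed on scaled fragment numbers only (limma adjusted p = 0.0135). Of 7 mismatch repair genes none passed in limma and 1 was lower at an unadjusted p under 0.05, with a list median of -0.10. Among them were exo1 (log2 difference -0.93, limma adjusted p = 0.330), whose values rest on control libraries 5 and 7 and which fell under the filter without them, and pms1 (-0.35, adjusted p = 0.360), which was at -0.04 without them.

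Of 37 genes of double-strand break and crosslink repair 1 rose and 1 fell, with 6 higher and 8 lower at an unadjusted p under 0.05. The calls were 5.41% of the list, beside 8.98% of all genes tested. The end-processing nuclease gene dclre1c (Artemis) rose by 0.74 on the log2 scale (limma adjusted p = 0.0402) and the helicase gene blm fell by 1.39 (limma adjusted p = 0.0311). Both calls were lost without control libraries 5 and 7 (adjusted p = 0.183 and 0.115) and without single libraries, 8 for dclre1c and 7 for blm. The median of the list was -0.39 over 37 genes with all libraries and 0.10 over 32 genes without control libraries 5 and 7. The genes that fell under the filter there were fancf, fancl, eme1, rad54l and fancb. All had negative log2 differences with all libraries, and fancf, fancl and eme1 are among the 8 lower. The medians thus cover different sets of genes. In control libraries 5 and 7, markers of dividing cells were also high. Their part in these differences was not tested. Next by p were the end-joining kinase prkdc (log2 difference 0.46, limma adjusted p = 0.0670) and the histone gene h2afx (0.81, adjusted p = 0.0772), whose adjusted p was 0.0314 without control libraries 5 and 7.

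In human cells DDB2 is a target of p53, so a list of p53 targets and regulators was set beside it. Whether each listed gene, gadd45ba and gadd45bb among them, answers to p53 in zebrafish retina was not tested. Of 25 tested, 3 rose and none fell (limma), with 4 higher and 1 lower at an unadjusted p under 0.05. The calls were 12.0% of this list, beside 8.98% of all genes tested (5.47% higher and 3.50% lower). The genes that rose were the cell cycle inhibitor cdkn1a, with means of 2.85 ± 0.956 FPKM (SD, n = 5) in the control and 7.0 ± 2.32 FPKM (SD, n = 6) in the MeHg lineage (log2 difference 1.02, limma adjusted p = 0.0230), gadd45bb (1.29, adjusted p = 0.000880) and gadd45ba (1.11, adjusted p = 0.0150), which encode stress-induced regulators. The list median was -0.22. The related gadd45aa was at -0.22 (limma adjusted p = 0.540). Without control libraries 5 and 7, 2 rose and 2 fell, in a fit where 8.28% of all genes passed. Those that fell were the p53 regulator mdm2 (-0.48, limma adjusted p = 0.0450) and plk2a (-0.64, limma adjusted p = 0.0352). With all libraries they were at -0.33 (limma adjusted p = 0.227) and -0.39 (limma adjusted p = 0.288). Without control libraries 5 and 7 the adjusted p of cdkn1a was 0.0881. It was also above 0.05 without control library 4 or 5 or MeHg library 5, 6 or 7. The pro-apoptotic gene bbc3 had a log2 difference of -0.67 (limma adjusted p = 0.138).

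The 10 named genes whose pattern over the 11 libraries was nearest to that of ddb2 were found by the root mean square difference of profiles of log2(FPKM + 1), each centred on its own mean. In order they were dhrs12 (0.265), mt2 (0.370), ciarta (0.455), per3 (0.459), cry-dash (0.461), cry5 (0.463), slc13a4 (0.516), bhlhe41 (0.520), guca1c (0.577) and hsf2 (0.581), against a median of 1.66 over the 20319 genes ranked. These genes have the size of the lineage difference in common with ddb2 by construction, and no shared control is read from it. The nearest, dhrs12, a dehydrogenase gene, had means of 23.6 ± 5.77 FPKM (SD, n = 5) in the control and 2.35 ± 0.793 FPKM (SD, n = 6) in the MeHg lineage. For mt2, a metallothionein that binds metal ions, the means were 372 ± 102 and 48.2 ± 13.1 FPKM. The set also held per3, ciarta and bhlhe41, which encode regulators of the circadian clock, and per3 had means of 57.4 ± 22.7 and 4.34 ± 1.17 FPKM. Both photolyase genes were in this set, and of the other 7 excision repair genes neil1 ranked 296th, xpc 628th and ercc6 3217th, while the other 4 ranked from 9054th to 14446th. Without control libraries 5 and 7, 5 of the 10 genes were again among the 10 nearest.

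**Figure D5:**
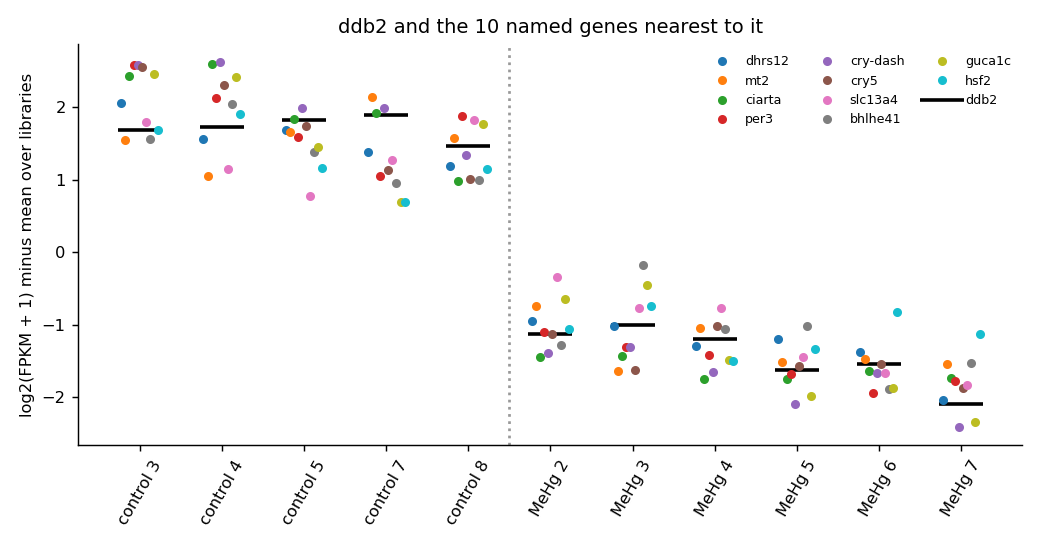
Level of ddb2 (black bars) and the 10 named genes nearest to it (coloured points) in each of the 11 libraries, as log2(FPKM + 1) minus the gene's mean over libraries (vertical axis). All 11 genes lie above 0 in the 5 control libraries and below 0 in the 6 MeHg libraries.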

How the data were processed

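Reads of TruSeq libraries were processed by the authors with CASAVA 1.8.2, cutadapt, FastQC, TopHat and Cuffnorm against Zv9, per the submitters' processing notes; the annotation and the strand setting were not given in the sources used here. The deposited FPKM table gives fragments scaled to gene length and library size. The companion deposited table is a signal, fragment numbers divided by a size factor per library: 98.3% to 98.6% of its values lie within 0.01 of a whole multiple of a library step, which gave the fragment numbers. Of the value columns, 1 without a name in either file was not used, and control replicate 1 was not analysed here. Genes whose mean reached 0.5 FPKM entered a linear model in limma 3.58.1 under R 4.3.3 (eBayes with trend, log2(FPKM + 1), two-sided, Benjamini-Hochberg, threshold 0.05), checked on simulated data. Exact permutation tests used scipy 1.17.1. Differences are MeHg minus control lineage.

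Members and lists were chosen with earlier results of these data known. Named are the 8 genes, up to 4 genes of smallest p per list and the 10 nearest to ddb2 with an assigned symbol. A few further list genes, such as per2, were named after their values were seen. Symbols came from the table and the reference names. Reads shared with near-identical or overlapping genes cannot be told apart. Alternatives covered pseudocount, filter, scaling, array weights, replicate block and libraries left out. A test on raw counts and a motif search in promoters were planned and not run. Some genes that this rule names are not reported here.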

Additional observations from a re-analysis of the deposited data

Results flagged for a closer look

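In each lineage, 46 of the genes named in the text were checked for a library far from the others. Of the 92 groups of libraries 6 met the criterion, which chance meets in about 1 of 20 groups. Among the 8 excision repair genes, ddb1 was at 52.3 FPKM in control library 3, against 35.6 to 40.2 FPKM in the other control libraries, and ercc5 was at 5.94 FPKM in MeHg library 3, against 4.64 to 5.06 FPKM in the others. Among the other genes, ambra1a was at 7.97 FPKM in MeHg library 7 (others 4.73 to 5.75), prkdc at 4.46 FPKM in MeHg library 4 (others 3.70 to 3.91), cdkn1a at 4.52 FPKM in control library 3 (others 2.08 to 2.61) and bhlhe41 at 13.1 FPKM in MeHg library 3 (others 3.31 to 6.87). No library was flagged for ddb2, xpc or neil1.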

How the results depend on the processing

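The log2 difference of ddb2 was -3.82 with a pseudocount of 0.1, -3.47 with 0.5 and -3.81 on scaled fragment numbers; leaving out each library gave -3.24 to -3.02. Those of the other 7 excision repair genes moved by less than their SD pooled within lineages in all 21 alternative fits; without control libraries 5 and 7, neil1, ercc1, ercc5 and ercc6 moved by more than their SD within the MeHg lineage alone. The 3 members past the threshold were 2 or 3 with each library left out. Over all genes the count of 1824 was 1177 to 1905 with each library left out, lowest without control library 5, and for the repair lists the count of 8 was 4 to 11. Libraries numbered 3, 4, 5 and 7 exist in both lineages, but same-numbered libraries did not deviate together (correlations of -0.20, -0.23, -0.01 and -0.13). Different-numbered libraries were not compared in this way, so this check cannot decide whether the numbers pair the libraries. With the number as a replicate block on these 8 libraries, 199 genes, 2 repair list genes and 1 member passed; without the block on the same libraries these were 784, 5 and 1, and the member was ddb2 in both fits. Of the 10 genes nearest to ddb2, 5 were shared without control libraries 5 and 7. On scaled fragment numbers no relation to ddb2 within the MeHg lineage passed. Depth limits xpa and, in the MeHg lineage, ddb2 and the photolyase genes. Both planned steps that were not run, the raw count test and the motif search, give no value.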
